A study of Homo sapiens with 2 samples.

Results

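Of the 54389 ETV4 peaks in A549 cells, 1963 had a summit outside every RefSeq gene of any type and more than 50 kb from every gene end, and these intergenic peaks are called gene-distant peaks here. They made up 3.61% of all peaks (Wilson 95% confidence interval 3.46% to 3.77%). The members were chosen by position alone, so their enrichment, width and spacing played no part in the choice. A549 is an established human lung adenocarcinoma line. The cells carried a lentiviral shRNA against ETV4, which was then expressed again from a transfected plasmid as a Flag-tagged protein, and the input came from the same line. Chromatin was precipitated with an anti-Flag antibody, given as a Sigma product in the labels and as a CST product in the methods, so the peaks report a tagged and re-expressed protein and not endogenous ETV4. There was 1 immunoprecipitate and no replicate, so no difference was tested, and intervals cover counting error within this library only.

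ETV4 belongs to the PEA3 group of ETS transcription factors, whose DNA-binding domain recognises sequences built around the core GGAA. Factors of this kind bind promoters and also enhancers, which can lie far from the gene they act on. Long stretches without genes often flank genes that control development, and such stretches can hold several enhancers of 1 gene. The nearest gene of a distant peak is a matter of position and does not show that the peak acts on it.

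The gene-distant peaks were sparse. The gene-free stretches of the genome held 454.7 Mb that lay more than 50 kb from any gene end, or 15.0% of the span between the outermost genes of chromosomes 1 to 22 and X. This territory had 4.32 peaks per Mb (exact Poisson 95% confidence interval 4.13 to 4.51), against 20.4 peaks per Mb in the rest of the span (20.2 to 20.5). Intergenic sequence within 50 kb of a gene end had 19.4 peaks per Mb, and sequence inside genes but more than 50 kb from every gene end had 10.2. The distant territory was therefore the least densely bound of these classes, also against the interior of long genes over 50 kb from every gene end. Distances beyond 50 kb were not matched between these classes. Centromeres and assembly gaps are part of the territory, because no genome sequence was used here, and 25 of the 30 gene-free stretches over 1 Mb held no gene-distant peak. Without stretches over 1 Mb, an alternative chosen after the values had been seen, 1938 of the peaks remained and the density was 6.90 per Mb (6.60 to 7.22), still the lowest of the 4 classes.

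The median distance of a gene-distant summit from the nearest gene end was 76.5 kb, and 90% lay within 151.6 kb. Only 566 peaks (28.8%) were over 100 kb away, 95 over 200 kb and 2 over 500 kb. The gene whose end or body was nearest was a lncRNA for 52.3% of the peaks (50.1% to 54.5%), a pseudogene for 24.5% and a protein-coding gene for 19.6%. Of the 59098 genes in the table, lncRNA genes were 30.8% and protein-coding genes 33.8%. The genes that border distant territory were not counted by type, so these shares do not show a preference of the peaks. Distances to protein-coding genes were longer, with a median of 183 kb and a maximum of 4487 kb.

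Peaks on either side of the 50 kb limit had folds of the same range. The members closest to it, at 50.02, 50.03 and 50.03 kb, had fold enrichments of 13.8, 11.8 and 4.51 over the control. The intergenic peaks just short of it, at 49.98, 49.95 and 49.93 kb, had fold enrichments of 8.62, 4.26 and 6.91. The limit is a convention.

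The typical gene-distant peak was weaker than other peaks, but the strongest ones were not. Fold enrichment is the ratio of the fragments piled up at the summit to the local control level, as the peak caller gave it. It had a median of 8.32 among gene-distant peaks (binomial 95% interval of the median 7.93 to 8.76) against 9.63 among all other peaks (9.59 to 9.67). The lower median was shared by peaks inside genes but more than 50 kb from every gene end, at 8.22 (7.88 to 8.51). Against all other peaks together, the order turned in the upper part of the distribution. The 75th percentile was 17.1 for gene-distant peaks and 20.4 for the others, whereas the 95th percentile was 57.9 against 54.6 and the 99th percentile 108 against 97.7. A fold of at least 50 was reached by 129 gene-distant peaks, or 6.57% (5.56% to 7.76%), beside 6.06% of all peaks. A fold of at least 100 was reached by 28 of them, or 1.43% (0.989% to 2.05%), beside 0.932% of all peaks. The interval of the first share includes that of all peaks, and the interval of the second begins just above it. Of the intergenic peaks nearer to genes, 6.65% (6.29% to 7.03%) reached a fold of 50, and their 95th percentile was 57.4. A fold of 100 was reached by 1.02% (0.881% to 1.18%) of this class. In the interior of long genes that share was 0.985% (0.687% to 1.41%). The intervals of both classes overlapped those of gene-distant peaks, so these shares do not set gene-distant peaks apart from either class.

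**Figure D1:**
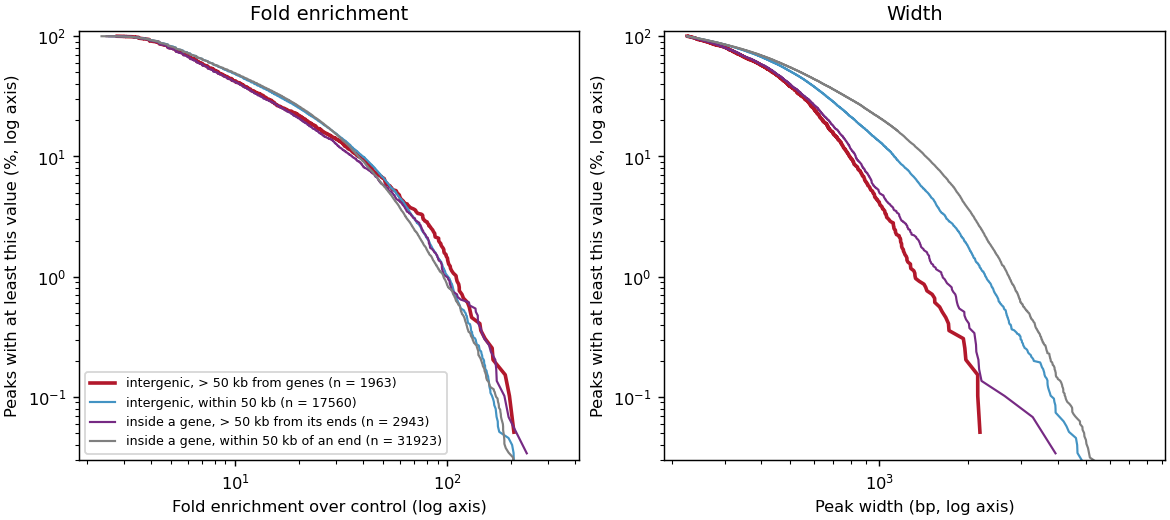
Share of peaks (%, log axis) with at least the fold enrichment over control (left, log axis) or the width in bp (right, log axis) on the horizontal axis, for gene-distant peaks (red) and the 3 other positional classes. The red fold curve runs below those of peaks near gene ends at a fold of 10 and above them at 100, while the red width curve lies lowest from about the median on.

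When all peaks were ranked by fold and cut into 10 classes of equal size, gene-distant peaks took 4.01% of the lowest class and 4.36% of the third. Their share was smallest in the ninth class, 2.61% (2.22% to 3.07%), and was 3.57% (3.11% to 4.09%) in the highest. Among the 1000 peaks with the highest fold, 54 were gene-distant (5.4%, 4.16% to 6.98%), and among the 1000 with the highest pileup 37 were (3.70%, 2.70% to 5.06%). None of the 10 highest peaks by fold or by pileup was gene-distant.

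The depth behind the fold was recovered from the fold and the −log10 p of each peak, which together give a whole number of fragments at the summit and the control level expected there. Gene-distant peaks had a median of 21 fragments (20 to 22) against 26 for the other peaks, and the 90th percentiles were 97 and 114 fragments. Peaks inside genes but over 50 kb from every gene end also had a median of 21 fragments (20 to 22). The control level of gene-distant peaks was lower than that of the other peaks. It stood at the lowest value of the list, 1.283, for 41.9% of gene-distant peaks (39.8% to 44.1%) and for 28.6% of the others. Among peaks at this lowest level, the median fold was 8.32 (7.45 to 8.76) for gene-distant peaks and 8.76 for the others, so these medians were closer to each other than those of all peaks. Where the control level was over 3, the medians were 6.31 (5.45 to 7.86) and 9.91. The part of the control level in the lower fold of gene-distant peaks was not tested further.

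Gene-distant peaks were also narrow, with a median width of 437 bp (428 to 449) against 523 bp (520 to 527) for all other peaks. A width of at least 1 kb was reached by 82 of them, or 4.18% (3.38% to 5.16%), against 17.6% of the others, and a width of at least 2 kb by 3 of them. The interior of long genes was alike in this respect, with a median of 444 bp (435 to 452). Width grows with the number of fragments, so the peaks were compared at like pileup. With under 12 fragments at the summit the medians were 293 bp and 295 bp. With 12 to 19 fragments they were 339 bp (331 to 349) and 363 bp (360 to 365), and with 20 to 39 fragments 455 bp (443 to 465) and 507 bp (503 to 511). With 40 to 79 fragments they were 590 bp (573 to 614) and 738 bp (728 to 752), and with 80 to under 160 fragments 689 bp (663 to 721) and 968 bp (946 to 992). The intervals were thus apart in each of these classes but the weakest.

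**Figure D2:**
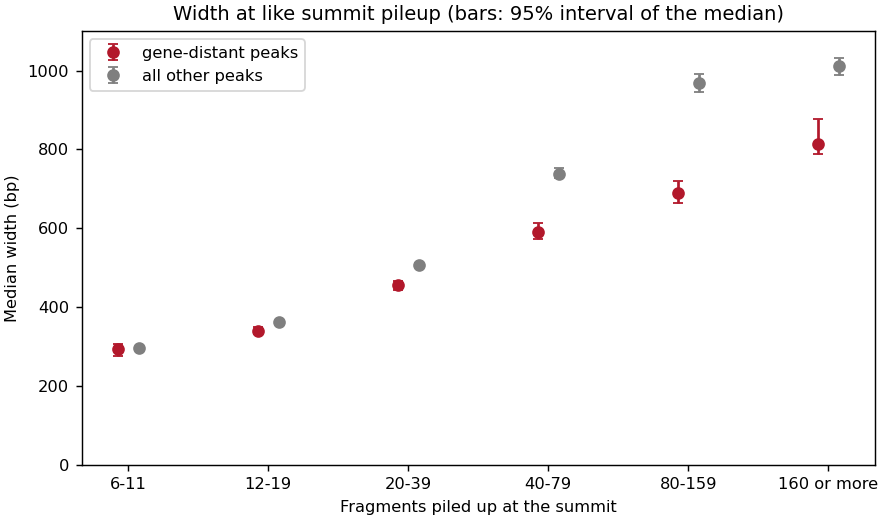
Median width (bp) of gene-distant peaks (red) and all other peaks (grey) in 6 classes of fragments piled up at the summit, with bars for the 95% interval of the median. The intervals overlap below 12 fragments, and the points stand at 689 bp and 968 bp in the class that ends below 160 fragments.

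Within the gene-distant peaks, the median enrichment differed little with distance. The median fold was 8.76 at 50 to 60 kb, 7.45 at 80 to 100 kb, 8.32 at 100 to 150 kb and 8.96 (7.01 to 11.99) beyond 200 kb. The intervals of these medians overlapped throughout. The median width lay between 399 and 447 bp in all 6 distance classes.

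**Figure D3:**
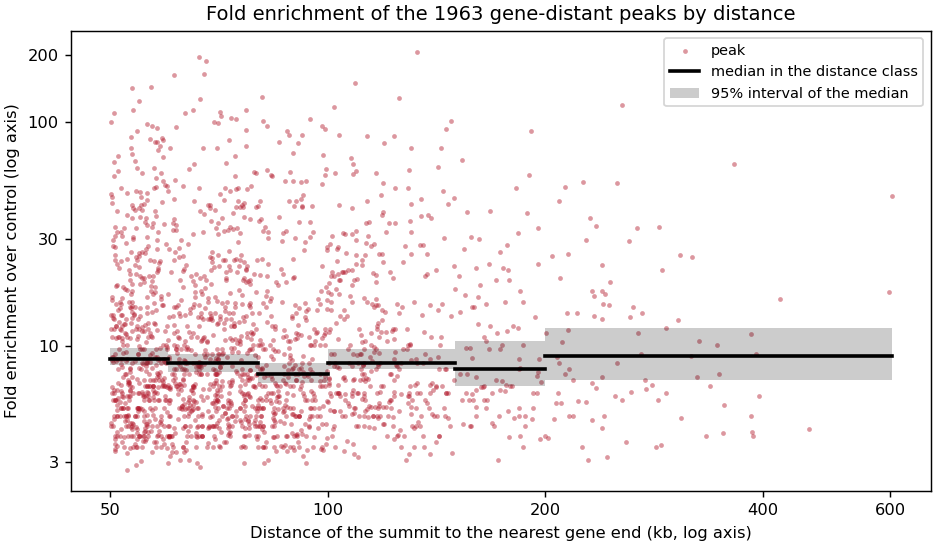
Fold enrichment over control (log axis) of each of the 1963 gene-distant peaks against the distance of its summit to the nearest gene end (kb, log axis), with the median of each distance class (black line) and its 95% interval (grey band). The medians stay between 7.45 and 8.96 from 50 kb to 603 kb.

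The 10 gene-distant peaks of highest fold lay on chromosomes 2, 6, 7, 8, 14, 16, 17 and 19. The highest, on chromosome 8 from 139046489 to 139047386, had a fold of 206 with 523 fragments at the summit (479 to 570 by the exact Poisson interval) and a control level of 1.54. It lay 132.9 kb from COL22A1, which encodes a collagen chain, and 554 kb from KCNK9, a potassium channel gene. Next was a peak on chromosome 19 from 32177234 to 32178158, with a fold of 197 and 598 fragments (551 to 648), the highest pileup of the 10. It lay in the gap between TSHZ3, which encodes a zinc finger transcription factor, 827 kb away, and ZNF507, 168 kb away. A peak on chromosome 7 from 45505671 to 45506786, 67.9 kb from the adenylyl cyclase gene ADCY1, had a fold of 188 and 443 fragments.

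The other peaks of this group had folds from 129 to 164. A peak on chromosome 16 from 82259629 to 82260589, with a fold of 164, lay between MPHOSPH6 and the cadherin gene CDH13, at 89.9 kb and 367 kb. On chromosome 6, a peak from 14797796 to 14799756 with a fold of 163 lay 447 kb from JARID2, which encodes a subunit of the repressive complex PRC2, and 662 kb from CD83. It was 1961 bp wide and so also among the 5 widest gene-distant peaks. A peak on chromosome 17 from 65336486 to 65337276, with a fold of 151, lay 109 kb from RGS9 and 192 kb from AXIN2, a negative regulator of WNT signalling. These 10 peaks had 325 to 598 fragments and control levels from 1.283 to 3.04. The 95th percentile of the control level over all gene-distant peaks was 3.03.

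The remaining 4 lay at least 329 kb from the nearest protein-coding gene. The peak on chromosome 14 from 97215159 to 97216001, with a fold of 144, lay between the kinase gene VRK1 at 334 kb and BCL11B, a zinc finger transcription factor gene, at 1954 kb. On chromosome 8, a peak from 75945784 to 75946989 with a fold of 142 lay between HNF4G, a nuclear receptor gene, at 380 kb and ZFHX4 at 735 kb. The peak on chromosome 6 from 140285706 to 140286685, with a fold of 130, lay 912 kb from CITED2, a transcriptional coregulator gene. A peak on chromosome 2 from 150918086 to 150918899, with a fold of 129, lay 329 kb from RBM43 and 431 kb from RND3.

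The 5 gene-distant peaks farthest from any gene ran from weak to strong. A pair on chromosome 4, from 179492275 to 179492969 and from 179496640 to 179497173, lay 603 and 599 kb from the nearest gene and 4.40 kb from each other. Their folds were 46.9 and 17.4, with 106 fragments (86.8 to 128) and 40 fragments (28.6 to 54.5). The protein-coding genes on either side, AGA and TENM3, were about 2 Mb away. The next farthest, on chromosomes 6, 18 and 11 at 464, 423 and 395 kb, had folds of 4.26, 16.2 and 5.95.

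The widest gene-distant peaks were 1945 to 2188 bp wide. The widest, on chromosome 19 from 13632061 to 13634248, lay 50.6 kb from the nearest gene between CACNA1A and YJU2B and had a fold of 110. The second, on chromosome 12 from 34335438 to 34337588, had a fold of only 4.59 with 16 fragments (9.15 to 26.0) and a control level of 2.70, and the next gene on its other side, the pseudogene ZNF970P, was 3239 kb away. The third, on chromosome 1 from 157402234 to 157404383, had a fold of 42.3 and lay between FCRL5 and ETV3, itself an ETS factor gene, at 110 and 265 kb. The last, on chromosome 2 from 133810493 to 133812437, lay between NCKAP5 and MGAT5 and had a fold of 32.7.

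All 23 chromosomes that had peaks had gene-distant ones, from 10 on chromosome 22 to 208 on chromosome 2. Per Mb of distant territory, chromosome 20 was the densest, with 84 peaks and 11.8 per Mb (9.38 to 14.6), followed by chromosome 10 with 7.98 (6.57 to 9.59) and chromosome 8 with 7.80 (6.55 to 9.21). Groups of 17 and 14 neighbouring peaks, described below, were among the 84 of chromosome 20. The Poisson intervals count each peak alone, and the rank was not recomputed without these groups. Chromosomes 22, 21, 15 and 13 were the sparsest, with 0.720 to 1.77 per Mb, and chromosome X had 2.67 (2.14 to 3.30). The low values of chromosomes 13, 15, 21 and 22 rose when stretches over 1 Mb were left out, to between 3.43 and 7.31 per Mb. With that restriction, chromosome 19 came first with 35.0 per Mb (22.6 to 51.6), on only 0.715 Mb of territory, chromosome 20 second with 17.1 (13.6 to 21.2), and chromosome X was lowest with 3.13 (2.501 to 3.86). Chromosome 19 and chromosome 20 were also dense in other peaks, with 46.9 and 31.1 per Mb, against 11.4 on chromosome X.

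**Figure D4:**
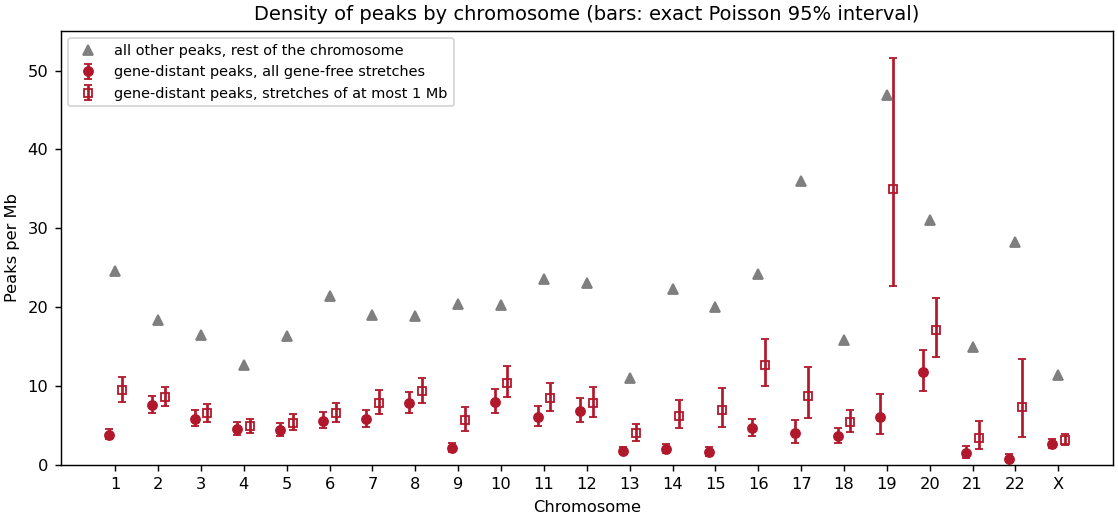
Peaks per Mb on each chromosome: gene-distant peaks per Mb of territory over 50 kb from genes (filled red circles), the same without gene-free stretches over 1 Mb (open red squares), both with exact Poisson 95% intervals, and all other peaks per Mb of the rest of the chromosome (grey triangles). Chromosome 20 stands at 11.8 per Mb for the filled circles, and every filled circle lies below the triangle of its chromosome.

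Enrichment differed less between chromosomes than density. The median fold of gene-distant peaks ranged from 6.57 on chromosome X (5.62 to 7.88) to 13.0 on chromosome 21 (6.38 to 17.2, 17 peaks). No peak with a fold of at least 50 lay on chromosomes 13, 22 or X, whereas chromosome 19 had 6 such peaks among its 25. The median control level of gene-distant peaks was highest on chromosomes 6 and 8, 2.02 on both, and its part in the fold there was not tested.

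Gene-distant peaks were spaced widely but not evenly. The median distance from a gene-distant summit to the next summit of any kind was 19.7 kb (17.7 to 21.7), against 7.53 kb (7.38 to 7.68) for all other peaks and 14.3 kb (12.9 to 15.7) for peaks deep inside genes. Even so, 27.4% (25.5% to 29.4%) had another peak within 5 kb, against 40.6% of the other peaks, and the 90th percentile of the distance was 148 kb. With successive gaps of under 50 kb between gene-distant peaks, these formed 1186 groups, of which 779 were single peaks and 178 had 3 or more members. Other peaks were left out of the grouping, so a single or lone peak can have a peak of another class nearby. Any other peak lay within 50 kb of 70.0% of gene-distant peaks, and another gene-distant peak within 50 kb of 60.3%. These 178 groups held 726 peaks, or 37.0%.

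Peaks in groups were no stronger than lone ones, which are those without another gene-distant peak in their group. The median fold was 8.32 (7.88 to 9.197) for lone peaks and 8.09 (7.57 to 8.76) in groups of 3 or more. A fold of at least 50 was found in 6.42% (4.90% to 8.36%) of the former and 6.89% (5.26% to 8.97%) of the latter. The share with another peak within 5 kb did not rise with fold either, being 29.2% below a fold of 5 and 23.3% (16.8% to 31.3%) at a fold of at least 50.

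The peaks lay in a minority of gene-free stretches. Of 2910 stretches long enough to hold one, 955 (32.8%) did, and 506 of these held a single peak. At the other end, 67 stretches with 5 or more peaks held 23.6% of all gene-distant peaks. The share of stretches with a peak rose with the distant territory they held. It was 23.1% for the 1952 stretches with at most 100 kb, 47.4% at 100 to 200 kb and 60.8% at 200 to 500 kb. The density fell with the size of the stretch, from 10.1 per Mb where the distant territory was at most 100 kb through 7.599 per Mb at 100 to 200 kb to 5.03 per Mb at 200 to 500 kb. Longer stretches include those over 1 Mb, most of which held no such peak, and are not compared here. As the distant territory of a short stretch lies close to the 50 kb limit, the length of a stretch and the distance from genes cannot be told apart here.

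The stretch with the most peaks was on chromosome 20, from 57729225 to 57985898, between PMEPA1 and CIMIP1. PMEPA1 encodes a membrane protein that is induced by TGF-β and restrains its signalling. The stretch held 17 gene-distant peaks, which also formed the largest group, with summits spread over 151.5 kb and 109 peaks per Mb of distant territory. The peak from 57910962 to 57911768 had the highest fold, 104, with 252 fragments (222 to 285). A peak from 57894143 to 57895285 had a fold of 80.6 with 183 fragments, one from 57818283 to 57818978 a fold of 54.9 with 135 fragments, and one from 57928199 to 57929375 a fold of 34.2 with 85 fragments. The other 13 had folds from 3.40 to 14.8, so a few strong sites stood among many weak ones. PMEPA1 was the nearest protein-coding gene of 16 of them, at 71.1 to 220 kb on its upstream side, and a peak at its 5′ end had a fold of 62.1.

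BMP2, the gene of a bone morphogenetic protein of the TGF-β superfamily, also on chromosome 20, was likewise nearest to 16 gene-distant peaks. Of these, 14 lay from 6586330 to 6665933, within 102 to 181 kb of the gene, and formed the second largest group. The peak closest to BMP2, from 6665253 to 6665933, had a fold of 113 with 380 fragments (343 to 420). Peaks from 6644844 to 6645716 and from 6586330 to 6586994 had folds of 82.0 and 75.5, with 209 and 189 fragments. The remaining 13 had folds from 4.38 to 32.2, and a peak at an end of BMP2 itself had a fold of 15.5. The third group, of 12 peaks on chromosome 2 between DYSF and CYP26B1, had a median fold of 6.57 and a highest fold of 96.4. The other genes nearest to the most gene-distant peaks were C16orf82 and MATN1, an extracellular matrix gene, with 15 each and ZFAT, a zinc finger gene, with 13. Their strongest peaks had folds of 25.8, 59.2 and 20.01.

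Taking 1 Mb as the limit, 1868 gene-distant peaks (95.2%) could be assigned to a nearest protein-coding gene, and these were 831 genes, or 4.16% of the 19974 protein-coding genes. Counted without that limit, the peaks fell evenly on the sides of their nearest protein-coding genes. For genes whose strand RefSeq gave, 732 of 1486 peaks (49.3%, 46.7% to 51.8%) lay upstream of the nearest protein-coding gene, with a median fold of 8.35 on either side. Of the nearest genes within 1 Mb that had a known direction, 366 of 651 (56.2%, 52.4% to 59.98%) were bound within 1 kb of their 5′ end. The share was 61.4% over all 15812 protein-coding genes with a known direction. For the genes nearest, without the 1 Mb limit, to a gene-distant peak with a fold of at least 50 the share was 70.5% (62 of 88 genes, 60.2% to 78.97%). The interval for all nearest genes thus ended below the share of all protein-coding genes with a known direction, and that for the genes beside the strongest peaks included it. Genes that border distant territory but lack a gene-distant peak were not compared separately.

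A list of 32 genes known for distant enhancers or for bordering gene deserts was compared with these values. Of the 32 genes, 14 (43.8%, 28.2% to 60.7%) were the nearest protein-coding gene of a gene-distant peak, together of 53 peaks. Such genes border long gene-free stretches more often than others, so the fairer background is the 2103 protein-coding genes that are nearest to distant territory at all, of which 39.5% had a gene-distant peak. By that count, chosen after the values had been seen, 14 of 20 list genes (70.0%, 48.1% to 85.5%) had one. Their 3.90 Mb of distant territory held 13.6 peaks per Mb (10.2 to 17.8), against 6.54 per Mb (6.24 to 6.84) for all protein-coding genes, and BMP2 alone gave 16 of the 53 peaks. The 2103 genes had 285.8 Mb of distant territory. Territory per gene was not matched between them and the list, so the shares of 70.0% and 39.5% are not at like territory. The list was chosen with earlier results of these data known, so these values describe the list and do not test it. The Poisson interval counts each peak alone, although 14 of the BMP2 peaks formed 1 group.

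Several of the list genes encode developmental transcription factors. MYC, a proto-oncogene on chromosome 8, was nearest to 5 gene-distant peaks, 534 to 923 kb away on the side of higher coordinates. The strongest, from 128293893 to 128294681, had a fold of 105 with 352 fragments (316 to 391), a second from 128276241 to 128276881 a fold of 35.7 with 116 fragments, and the others folds of 15.8, 4.46 and 4.24. SOX9, a transcription factor of lung, cartilage and other lineages, was nearest to 6 peaks at 186 to 757 kb, of which the strongest, on chromosome 17 from 71550512 to 71551097, had a fold of 33.7. SOX11 had 5 peaks at 422 to 681 kb with folds from 3.90 to 28.5. ID2, which encodes an inhibitor of basic helix-loop-helix factors, had 6 peaks at 187 to 302 kb upstream on chromosome 2, with folds of 12.3, 55.4, 38.98, 14.5, 10.5 and 14.9 in the order of their positions.

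Other genes of this list had few or weak peaks. ZEB2, a repressor of epithelial genes, had a single peak at 962 kb, on chromosome 2 from 145481348 to 145482275, with a fold of 53.7. SHH, a morphogen, and CCND1, which encodes cyclin D1, had highest folds of 15.3 and 15.5. NR2F2 had a highest fold of 22.3. For IRX1, NR2F1 and TP63 the highest folds lay between 2.78 and 7.45, and the TP63 value, in a peak with 10 fragments, was the lowest fold of all gene-distant peaks.

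Of 28 genes of RAS-ERK signalling and of the PEA3 group, the pathway that drives ETV4 and the factors closest to it, 5 (17.9%, 7.88% to 35.6%) were nearest to a gene-distant peak, beside 4.16% of all protein-coding genes. Of the 9 that were nearest to distant territory at all, 5 (55.6%, 26.7% to 81.1%) had one, and this interval includes the 39.5% of all such genes. Their territory held 12.1 peaks per Mb (5.51 to 22.9), an interval that also includes the 6.54 per Mb of all protein-coding genes. DUSP6, a phosphatase that inactivates ERK, had 4 such peaks downstream on chromosome 12 at 184 to 202 kb. The peak from 89145023 to 89145779 had a fold of 78.5 with 262 fragments (231 to 296), and the others folds of 6.35, 6.83 and 6.63. SPRY2, a feedback inhibitor of receptor tyrosine kinase signalling, had 1 peak at 129 kb upstream on chromosome 13, from 80470101 to 80470743, with a fold of 18.4. SPRY4 had 2 peaks, with folds of 6.84 and 6.56, DUSP4 had 1 with a fold of 8.51, and ERBB4 had 1 with a fold of 4.27. The 5′ ends of DUSP6, SPRY2 and SPRY4 themselves had peaks with folds of 61.1, 46.4 and 58.1. For ETV1, ETV4 and ETV5 no gene-distant peak was counted.

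**Figure D5:**
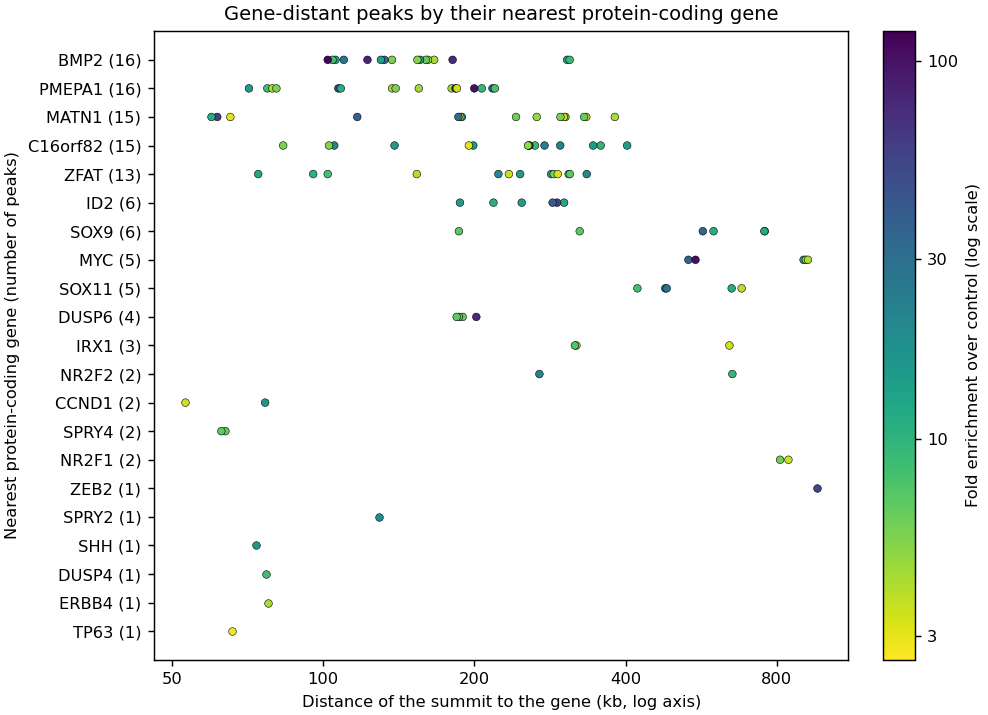
Distance in kb (log axis) of each gene-distant peak from its nearest protein-coding gene, for list genes named in the text and the 5 genes with the most, with the number of peaks in brackets and the fold enrichment as colour (log scale, dark is high). BMP2 and PMEPA1 have 16 peaks each, and the 5 peaks of MYC lie 534 to 923 kb away.

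For 3 of the list genes a summit also lay within the RefSeq promoter window, from 250 bases before to 50 after a transcription start on GRCh38.p14, which allows the promoter bound beside the distant peaks to be shown. In each, the ETS core GGAA is in capitals, on the printed strand as GGAA and on the other as TTCC. The ID2 promoter, chr2:8681806-8682105 on the plus strand, had a peak with a fold of 8.50 and its summit at base 200 of the window. The ZEB2 promoter, chr2:144520070-144520369 on the minus strand, had a weak peak with a fold of 3.75 and its summit at base 28. The SPRY2 promoter, chr13:80341077-80341376 on the minus strand, had a peak with a fold of 46.4 and its summit at base 103.
ID2: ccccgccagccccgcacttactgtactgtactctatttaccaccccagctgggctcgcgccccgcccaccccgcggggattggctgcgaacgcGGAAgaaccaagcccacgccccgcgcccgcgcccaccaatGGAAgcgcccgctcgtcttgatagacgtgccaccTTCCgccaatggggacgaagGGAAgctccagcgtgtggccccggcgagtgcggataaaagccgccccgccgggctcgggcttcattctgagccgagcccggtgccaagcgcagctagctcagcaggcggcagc
ZEB2: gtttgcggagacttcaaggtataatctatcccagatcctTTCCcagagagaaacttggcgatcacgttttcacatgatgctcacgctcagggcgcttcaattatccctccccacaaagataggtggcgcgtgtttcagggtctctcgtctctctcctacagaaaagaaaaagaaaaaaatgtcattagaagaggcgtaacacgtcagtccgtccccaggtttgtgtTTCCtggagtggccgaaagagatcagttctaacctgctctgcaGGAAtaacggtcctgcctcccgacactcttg
SPRY2: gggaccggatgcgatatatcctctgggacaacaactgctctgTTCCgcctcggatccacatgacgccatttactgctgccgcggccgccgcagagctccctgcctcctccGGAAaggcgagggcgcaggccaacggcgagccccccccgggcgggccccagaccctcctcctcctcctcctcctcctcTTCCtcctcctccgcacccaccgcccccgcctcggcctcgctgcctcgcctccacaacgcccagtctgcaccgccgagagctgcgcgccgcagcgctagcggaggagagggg

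The core occurred 4 times in the ID2 window, 3 times in that of ZEB2 and 3 times in that of SPRY2. It is short and common, and was found on either strand in 95.5% of the 35116 RefSeq promoter windows, with a median of 3 per window. The longer form GGAAG, which contains it, was found 4 times for ID2, not at all for ZEB2 and once for SPRY2, and in 71.9% of all windows. These matches describe the letters of the windows and do not locate binding. The sequences under the gene-distant peaks themselves were not used here.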

How the data were processed

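One anti-Flag ChIP-seq immunoprecipitate and 1 input library of A549 cells were studied through the deposited peak list of the immunoprecipitate. The submitters' processing notes name Bowtie2 2.4.1, SAMtools, MACS2 2.2.7.1 and deepTools 3.5.0, with the build hg38. The study gives a fold change over 2 as the limit of its peak list. The order and other parameters of these steps and the handling of duplicate reads are not given in the sources used here. The authors deposited each peak with its interval and summit, its enrichment against the control (a ratio), its −log10 p and −log10 q, and a display score that was not used. The lowest −log10 q was 1.30. Library totals were not used here; the depth behind each peak is its summit pileup, with a 5th percentile of 9 fragments.

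Genes were the 59098 RefSeq entries of GRCh38.p14 on chromosomes 1 to 22 and X, by their outer ends. Direction was taken from the RefSeq promoter table, which covered 15812 of 19974 protein-coding genes and none on chromosome 8. A member had its summit outside every gene and over 50 kb from every gene end. Pileup and control level were solved from the fold, (pileup + 1)/(control + 1), and the Poisson −log10 p. All pileups were whole to within 0.01. Members, gene lists and measures were chosen with earlier results of these data known. Single peaks named are the 10 of highest fold, the 5 farthest from genes, the 5 widest, 3 on each side of the limit, and those of the largest group and of the genes named. Some list genes are not reported here by name, though they enter the counts. Genes named border those peaks, are nearest to the most members, or stand on a list. The 2 groups after the largest, the other members of list genes and the promoter windows were chosen after their values were seen. Shares have Wilson, counts exact Poisson and medians binomial 95% intervals. Peaks of 1 library are not replicates, so no test was run. The distance, spacing and pileup functions were tested on simulated data. The motif search under the peaks was not run, as no genome sequence was used here. Figures were drawn in matplotlib 3.10.9, intervals computed in scipy 1.17.1, and tables handled in pandas 2.3.3 and numpy 2.4.6, under Python 3.11.15.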

Additional observations from a re-analysis of the deposited data

How the results depend on the processing

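No paired analysis was possible because there was 1 immunoprecipitate. Of 55 alternative values, 24 stayed within the 95% interval of the reported value. Using whole intervals moved none, and the ratio of the median fold of gene-distant to other peaks, 0.864, stayed below 1 in all of its 9 alternatives. It was 0.808 by pileup and 0.95 at the lowest control level, where its interval began at 0.85 and reached 1. None of these alternatives used only peaks inside genes but more than 50 kb from every gene end for comparison. Their median fold was 8.22 (7.88 to 8.51), beside 8.32 for gene-distant peaks, so the lower median did not hold against that class. A limit of 20 kb gave a share of 10.1%, a width of 453 bp, 7.41 peaks per Mb, a spacing of 13.6 kb, and 65.6% and 50% of the distant-enhancer and RAS-ERK genes with a member. A limit of 100 kb gave 1.04%, 1.99 per Mb, 30.01 kb, 21.9% and 0%. Counting protein-coding genes only gave 18.5%, 452 bp, 8.64 per Mb, 13.3 kb, 87.5% and 53.6%. A fold of at least 5 gave a median fold of 10.7, a width of 484 bp, 3.45 per Mb and 26.0 kb, and a −log10 q of at least 5 gave 10.1, 474 bp, 3.61 per Mb and 24.97 kb. Leaving out gene-free stretches over 1 Mb gave 6.90 per Mb. Joining peaks within 1 kb gave a spacing of 23.8 kb. Restricted to genes beside distant territory, 70.0% and 55.6% of the list genes had a member. The settings on stretches and territory and all alternatives for the ratio and the lists were chosen after seeing the data. The window around the summit for the motif was not run. A peak of 9 fragments has a counting interval of 4.12 to 17.1, so single weak peaks are imprecise.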
